A study of Drosophila melanogaster with 2 samples.

Results

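The chromosome X peaks away from promoters were 396 binding sites of the tagged zinc finger protein CG9215. They were taken from the authors' conservative peak list, as the peaks on chromosome X whose summit lay over 500 bp from every Ensembl transcript start site. They made up 396 of the 753 conservative peaks on X and 396 of the 3718 in the whole list, and are called members here. The data came from whole Drosophila melanogaster embryos aged 0 to 24 h, of a strain whose transgene adds enhanced green fluorescent protein (eGFP) to CG9215, by chromatin immunoprecipitation with an anti-GFP antibody and sequencing. The labels give 1 group of 2 biological replicates, both with the same transgene, mixed in age and with no sex recorded. The cells that make the fusion protein are not named in the labels. Neither the control experiment cited there nor any untagged embryo was analysed here. Depth is unknown, since only peak lists were held, without read numbers. The signal of a peak is the authors' own value and ranks peaks only within a list. Coordinates are on dm6, counted from 1.

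In flies, sites outside promoters include enhancers, which are often found in introns, as well as silencers and insulators. The X chromosome of male flies is transcribed at a raised level by the dosage compensation complex, which carries the roX RNAs and first binds sites rich in GA repeats. Proteins with zinc fingers often recognise short DNA sequences, and ChIP peaks in embryos also include open chromatin that many factors share.

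The windows below show the DNA under the 8 strongest of these peaks whose window, the summit base with 50 bp to either side, was clear of annotated UTRs, because A+T-rich sequence at the summit was a measured difference between these peaks and their own flanks. The last window, at egh, had the highest G+C of the UTR-free windows among the 25 strongest peaks and is shown as a contrast. It was chosen after its values were seen. The sequences are the plus strand of RefSeq's copy of the dm6 assembly, and capitals mark runs of 6 or more bases that are A or T alone.
lncRNA:Vinr, chrX:12751281-12751381: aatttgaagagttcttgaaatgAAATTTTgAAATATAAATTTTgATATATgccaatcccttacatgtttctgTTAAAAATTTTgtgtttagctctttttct
CG32772, chrX:4910306-4910406: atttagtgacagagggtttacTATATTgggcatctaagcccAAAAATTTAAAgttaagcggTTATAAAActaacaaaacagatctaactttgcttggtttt
CG3726, chrX:5918869-5918969: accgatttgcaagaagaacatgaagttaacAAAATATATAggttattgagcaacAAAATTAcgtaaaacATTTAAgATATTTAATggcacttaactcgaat
Tlk, chrX:3742176-3742276: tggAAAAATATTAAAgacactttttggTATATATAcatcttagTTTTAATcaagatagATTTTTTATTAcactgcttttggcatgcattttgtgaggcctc
norpA, chrX:4324943-4325043: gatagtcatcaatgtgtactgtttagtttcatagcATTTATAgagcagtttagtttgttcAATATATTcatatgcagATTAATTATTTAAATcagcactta
CHES-1-like, chrX:7706944-7707044: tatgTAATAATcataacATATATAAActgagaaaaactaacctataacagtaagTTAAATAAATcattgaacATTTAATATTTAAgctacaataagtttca
NFAT, chrX:13640473-13640573: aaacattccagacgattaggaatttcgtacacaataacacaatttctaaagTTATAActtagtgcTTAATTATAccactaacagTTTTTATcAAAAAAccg
LPCAT, chrX:9579243-9579343: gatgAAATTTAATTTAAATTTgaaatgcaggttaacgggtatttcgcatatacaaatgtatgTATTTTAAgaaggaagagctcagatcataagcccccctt
egh, chrX:2589592-2589692: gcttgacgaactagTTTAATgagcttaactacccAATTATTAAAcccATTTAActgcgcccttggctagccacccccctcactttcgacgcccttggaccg

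G+C made up 19.8% of the window at CHES-1-like and 23.8% of that at lncRNA:Vinr, the lowest of the 8. At LPCAT it was 32.7%, the highest of the 8, although this window held the longest A/T run, of 17 bases. Such runs covered between 25 and 39 bases in each of the 8 windows. The egh window had 49.5% G+C and still held 3 runs covering 22 bases.

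The strongest peak lay in an exon of the long non-coding RNA gene lncRNA:Vinr at chrX:12750829-12751623, with its summit 536 bp upstream of lncRNA:CR44619. Its signal was 2258, rank 22 of the conservative list, with 1117 in replicate 1 and 1102 in replicate 2. It was the only one of the 396 peaks among the 25 strongest of the list. Over the next 4897 bp, the list held 5 further peaks, 4 of them also away from promoters, with signals of 685 in an exon of lncRNA:CR44619 and of 339, 345 and 147 in the intergenic sequence beyond, the last 2 of which overlapped. The promoter peak between them had a signal of 1169.

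Most of the next strongest peaks lay in introns. An intron of CG32772 held a peak with a signal of 1845 at chrX:4910052-4910564, 1254 bp from the start site, with 1105 in replicate 1 and 727 in replicate 2. An intron of CG3726 held one of 1413, with 830 and 599. The third, of 1246, lay in Tlk, which encodes the Tousled-like kinase, with 710 and 537. The replicate values come from separate lists, which may differ in scale. Ranks in replicates 1 and 2 were 32 and 48 at CG32772, 46 and 70 at CG3726 and 67 and 84 at Tlk.

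The next sites were also intronic. norpA, the phospholipase C of phototransduction, held a peak of 1242 with 745 in replicate 1 and 511 in replicate 2. The forkhead gene CHES-1-like held one of 1007 with 534 and 489, and NFAT, a transcription factor gene, held one of 922 with 526 and 398. The remaining named sites of the 15 strongest included LPCAT, an acyltransferase of membrane phospholipids, at 898, CG42258 at 685 and Raf, the kinase downstream of Ras, at 669.

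A few strong peaks lay in untranslated exons. The strongest 3' UTR summit was in CG7872 with a signal of 903, at 532 in replicate 1 and 372 in replicate 2. The strongest 5' UTR summit was in baz, which encodes the polarity protein Bazooka, with 829, at 467 and 369. The 3' UTR of APC7, a subunit of the anaphase-promoting complex, held 669, at 352 and 323. All of the 15 strongest peaks passed the authors' threshold in both replicates. The strongest intergenic peak was 791 bp upstream of ph-d, a Polycomb group gene, with 530, and the strongest coding exon peak, in CG10962 within rdgA, a diacylglycerol kinase gene, had 131.

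Over all 396 peaks the signal ran from 2.04 to 2258 with a median of 140 and quartiles of 95.4 and 227. X promoter peaks had a median of 160 and autosomal peaks away from promoters 120. The signal was above the list median of 146 in 184 of the 396, or 46.5% (95% Wilson interval 41.6 to 51.4), against 36.9% (34.4 to 39.5) of the autosomal peaks away from promoters and 55.5% (50.3 to 60.5) of the X promoter peaks. Of the 500 strongest conservative peaks 36 were among the 396, as were 90 of the 1000 strongest. The weakest values belonged to peaks placed beside a stronger one: 24 of the 396 overlapped a stronger conservative peak, and these had a median signal of 18.6. A width of exactly 416 bp was shared by 275 of them, whose median signal was 113, while the other 121 peaks had a median of 314.

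The members were chosen for their recurrence across both replicates, so finding them in each follows from that choice. The weaker ones often failed the threshold of at least 1 replicate. A thresholded peak of replicate 1 overlapped 306 of the 396, or 77.3% (72.9 to 81.1), against 78.5% of all conservative peaks. For replicate 2 this was 239, or 60.4% (55.5 to 65.0), against 64.5%, and for both together 216, or 54.5% (49.6 to 59.4), against 59.0%. These shares are near those of the whole list. Among autosomal peaks away from promoters both replicates passed at 45.1% (42.5 to 47.8). With a reciprocal overlap of 50% the share of the 396 in both replicates was 40.2%.

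Replicate 1 alone passed 90 of the peaks (22.7%), replicate 2 alone 23 (5.81%) and neither 67 (16.9%). Over all conservative peaks on assembled chromosomes these shares were near, at 19.4%, 5.49% and 15.9%. The median signal of members was 212 for those passed in both, 112 for replicate 1 alone, 109 for replicate 2 alone and 80.8 for neither. All of the 99 strongest peaks passed in both, but 8.08% of the 99 weakest did. An overlapping peak of each replicate's ranked list, which is not thresholded, was found for 394 members, or 99.5%. The share was 98.8% of all conservative peaks on assembled chromosomes. Over the 394 sites the replicate signals had a Spearman rho of 0.803 and, on the log2 scale, a Pearson r of 0.879. The sites share 2 libraries and were chosen for their recurrence across them, so the overlaps and the correlation only describe the list.

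**Figure D1:**
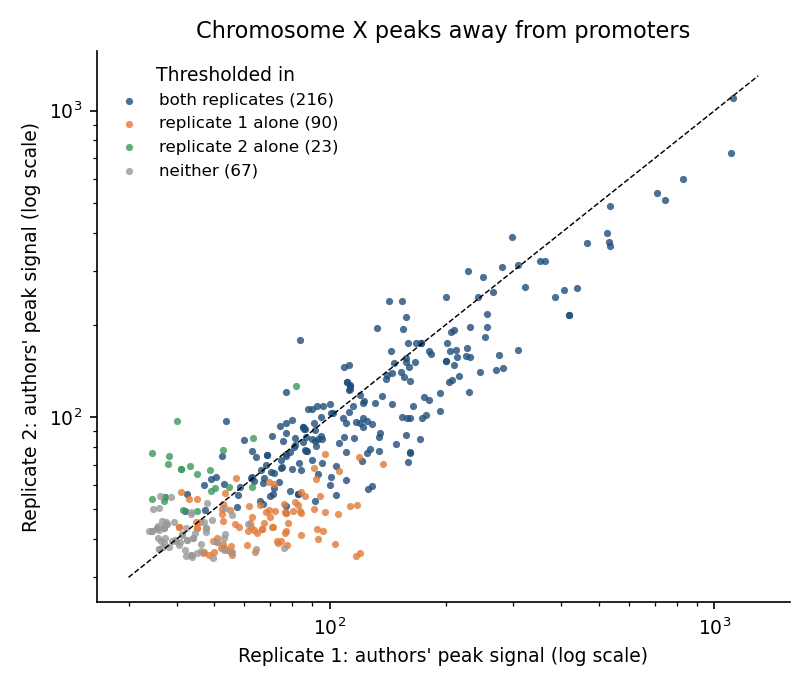
Signal of each chromosome X peak away from promoters in replicate 1 (x axis) and replicate 2 (y axis), both on log scales, coloured by the replicate lists in which a thresholded peak overlapped it. The dashed line marks equal values. Most strong peaks lie under it, but the signals of the replicate lists may differ in scale. The 67 peaks passed in neither replicate sit at the lower end.

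The strongest peaks that lacked a thresholded overlap in a replicate were at Raf, elav and Zdhhc8. The Raf intron peak at chrX:2302077-2302492 had a signal of 206, with 138 in replicate 1 and 70.4 in replicate 2, and passed in replicate 1 alone. The peak at elav, a neuronal RNA-binding protein gene, had 196, with 119 and 73.9. The peak at Zdhhc8, a palmitoyltransferase gene, had 179, with 97.4 and 76.0. All of these passed in replicate 1 alone, so a lower place in replicate 2 goes with how they were picked. Their ranks were 970, 1189 and 1532 in the list of replicate 1. In that of replicate 2 they were 1959, 1861 and 1806.

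Introns held 311 of the 396 summits, or 78.5% (74.2 to 82.3). The share was 61.1% (58.5 to 63.7) for autosomal peaks away from promoters and 46.1% (45.4 to 46.8) for the 17451 X peaks away from promoters that were ranked by the authors but overlapped no thresholded peak, called unselected here. Intergenic sequence held 59, or 14.9% (11.7 to 18.7), against 28.8% and 24.2% in those groups. Coding exons held 6, or 1.52% (0.696 to 3.27), against 6.32% and 24.1%. The other summits were in 5' UTRs (7), 3' UTRs (6) and non-coding exons (7). The annotation itself differed less between chromosomes, since positions spaced every 1000 bp and over 500 bp from a start site were intronic at 47.0% on X and 42.3% on autosomes.

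Per unit length, the introns of X carried the difference from the autosomes. Intronic sequence over 500 bp from start sites held 33.3 conservative peaks per Mb on X and 21.2 on the autosomes. Intergenic sequence held 12.9 per Mb on X and 14.4 on the autosomes. These densities carry no error, because they come from a single peak list.

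Of the 311 intronic summits 197 were in the first intron of at least 1 transcript, or 63.3% (57.9 to 68.5), against 71.8% (68.6 to 74.8) on the autosomes. Of the 59 intergenic summits 39 lay upstream of the nearest start site. The distance to the nearest start site ran from 501 to 42292 bp with a median of 2111, and 37 summits were over 10000 bp away. Autosomal peaks away from promoters had a median distance of 2153. The farthest, in mamo, which encodes a zinc finger protein of the germ line, had a signal of 419.

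**Figure D2:**
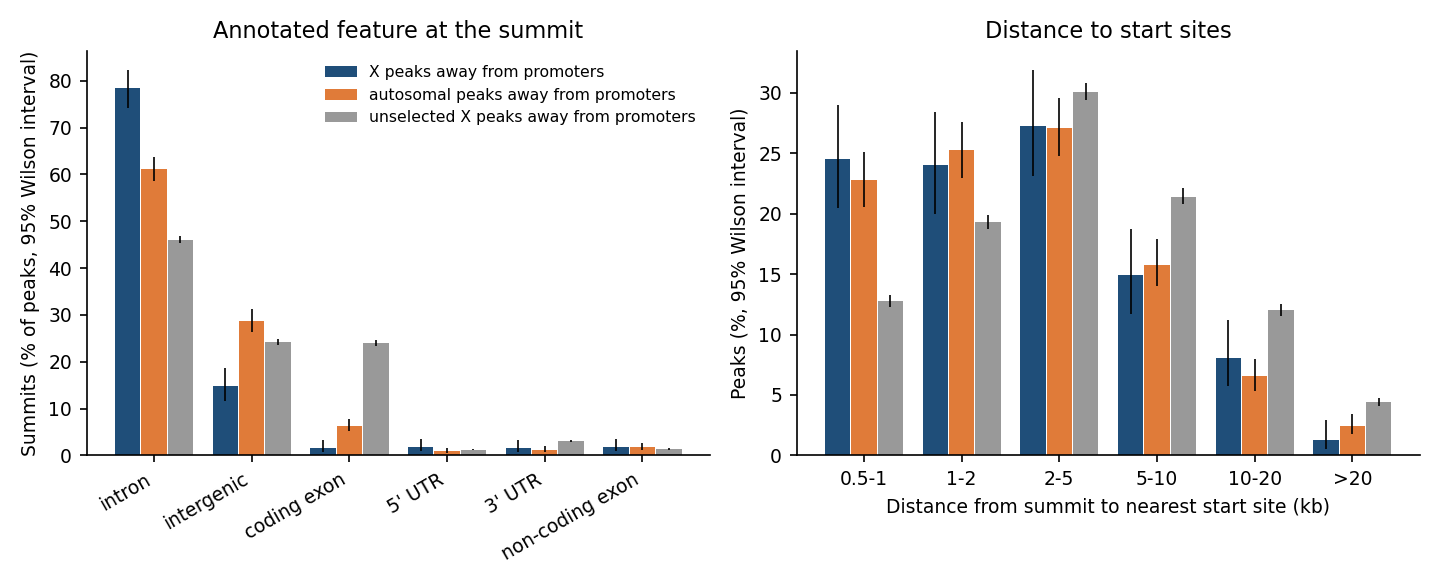
Left, share of summits in each annotated feature, and right, share of peaks by distance from the summit to the nearest start site, for X peaks away from promoters (n = 396), autosomal peaks away from promoters (n = 1346) and unselected X peaks away from promoters (n = 17451), with 95% Wilson intervals as error bars. Introns held 78.5%, 61.1% and 46.1% of the 3 groups, and the median distances of the conservative groups were 2111 and 2153 bp.

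At the edge of the distance rule, the members just inside it were an intronic peak of dlg1, a septate junction scaffold gene, at 501 bp with a signal of 195 and an intergenic peak near Tbh, the tyramine beta-hydroxylase gene, at 507 bp with 93.5. Just outside were a CG3638 intron peak at 485 bp with 173 and a CG17896 peak at 490 bp with 1126. A strong site therefore sat on the other side of the rule by 10 bp. The share of X conservative peaks called away from promoters was 52.6% (49.0 to 56.1) at 500 bp, 64.1% at 250 bp and 39.7% at 1000 bp. It was 46.0% (44.2 to 47.8) on the autosomes at 500 bp. By arm it was 50.1% (46.6 to 53.7) on 3L, with an interval that overlaps that of X. On 2L it was 45.4%, and on 2R and 3R 44.3%.

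Some of the sites came in groups inside long genes, and some of the grouping came from overlapping peaks. Another conservative summit lay within 2000 bp of 180 of the 396, or 45.5% (40.6 to 50.4), against 34.6% (32.1 to 37.2) of autosomal peaks away from promoters. Joined over gaps of 2000 bp, they formed 255 single sites, 45 pairs, 9 groups of 3, 3 groups of 4, 1 of 5 and 1 of 7. In 19 of the 45 pairs the peaks overlapped each other, so that a pair need not be 2 separate sites. In an alternative chosen after seeing the data, without peaks that overlap a stronger conservative peak, another summit lay within 2000 bp of 136 of 372 members, or 36.6% (31.8 to 41.6), against 24.8% (22.5 to 27.3) on the autosomes. They then formed 275 single sites, 28 pairs and 11 larger groups. The group of 7 spanned chrX:2296220-2304387 in Raf and the group of 5 lay in CHES-1-like.

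Raf held 10 of the peaks. Their signals were 340 at 841 bp from the gene's first base, 669 at 2259 bp and 391 at 5250 bp, with 7 weaker peaks between 91.4 and 206 that reached 34059 bp into the gene. The 669 peak had 406 in replicate 1 and 260 in replicate 2, whereas the 340 peak, in the 5' UTR, had 133 and 195. No conservative peak of Raf lay within 500 bp of a start site.

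Tlk, CHES-1-like and Hr4 each held 7. In Tlk the 1246 peak stood beside 6 others of 164 to 466, all passed in both replicates, and none was at a promoter. In CHES-1-like the 1007 peak was followed by peaks of 443, 430 and 383, and 2 promoter peaks of 458 and 240 lay in the same gene. Hr4, an ecdysone-regulated nuclear receptor gene, had its strongest site, of 369, 21969 bp into the gene, and its 2 weakest, of 103 and 87.6, did not pass in replicate 2.

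**Figure D3:**
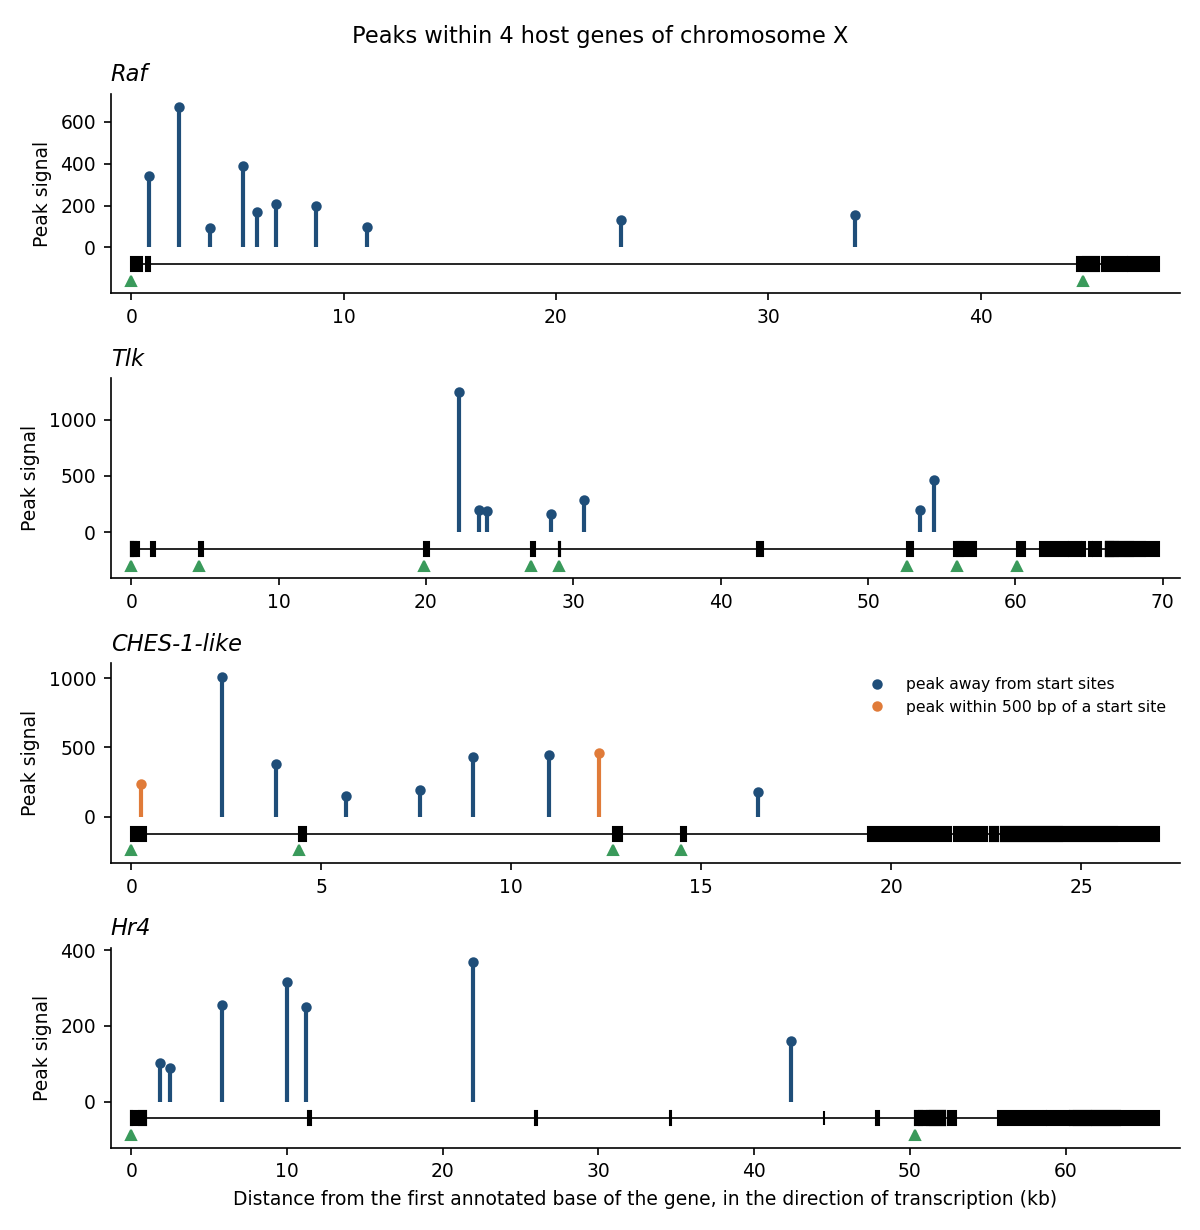
Conservative peaks in Raf, Tlk, CHES-1-like and Hr4, with the summit's distance from the first annotated base of the gene in kb (x axis) and the authors' signal (y axis, with its own scale in each panel). Black boxes are exons, triangles are annotated start sites, and the tallest peak of each gene, 669, 1246, 1007 and 369, is not at a start site.

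CG1677 held 13 members, the most of any protein-coding gene on X. It is a gene of 124709 bp that overlaps the longer lncRNA:CR44357, which held the same peaks and 1 more. Among these were overlapping peaks of 254 and 92.5 and of 85.7 and 2.49, and the counts per gene include such overlaps. Other genes lie in the same span, so the peaks need not belong to CG1677. Those of 85.7 and 2.49 were also in CBP and the 327 peak in Dok, and the 254 peak was 759 bp upstream of brk. Those in lncRNA:CR44357 were of modest signal, from 2.49 to 327, and 5 of the 14 had a signal under 90. kirre, an adhesion molecule gene of myoblast fusion, held 6 over its great length, led by one of 382 that also lies in CG32795. NFAT, dlg1 and CG14434 held 5 each. CG12535, CG42258, CG43658, Drak, Evi5, Mnt, Ptp10D, RhoGAP18B, Smr, mew and mgl held 4 each, as did lncRNA:CR44999, which overlaps CG12535. Among these are Ptp10D, a receptor tyrosine phosphatase, Smr, a nuclear corepressor, and mew, an integrin alpha subunit. A further 14 genes held 3, namely Ac13E, Chsy, Grip, HDAC4, IP3K2, Moe, Pits, Rip11, Zdhhc8, dnc, e(y)3, lncRNA:flam, sn and spri. In all, 36 genes of any type held 3 or more, with 152 of the 396 peaks.

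Of the 2196 protein-coding genes annotated on X, 188 held a peak in the gene body, or 8.56%. These were long, with a median length of 19550 bp against 2521 bp for all. The share holding a peak was 2.92% of genes up to 10000 bp, 28.1% of those up to 30000 bp, 50.7% of those up to 60000 bp and 51.8% of longer ones. A promoter peak was also present for 62 of the 188, against 409, or 18.6%, of all 2196.

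Gene lists were read against the 220 of 2196 X protein-coding genes that held a peak or were nearest to one outside genes. Among developmental transcription factors 11 of 29 had a peak, led by mamo at 419, Atf3, a bZIP factor, at 382 and br, an ecdysone-induced factor, at 377. The br peak also lies in Mur2B. The others were Lim1, ct, lz, bi, Bx, disco-r, peb and CrebB. Only 2 of the 29 had a promoter peak. The median length of the genes on this list was 18988 bp, far above that of all X genes, and the part of length in these counts was not tested.

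Among signalling and growth genes 8 of 21 had 24 peaks in all, 10 of them in Raf and 5 in dlg1, and the other genes were N, sgg, upd2, sog, Pvf1 and if. Among neuronal genes 8 of 28 had a peak, led by norpA at 1242, then dnc, the cAMP phosphodiesterase gene, at 204 and elav at 196. The elav peak also lies in arg and lncRNA:enrr. The neuronal list had a median length of 38197 bp. Ecdysone response genes had 3 of 5, namely br, Hr4 and gce. Among muscle and cytoskeleton genes 3 of 13 had a peak, with kirre at 382, 202 and 175. The peaks of 382 and 175 also lie in CG32795.

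Among chromatin and architectural protein genes 4 of 16 had a peak. The strongest were at ph-d with 530, at e(y)3, which encodes a chromatin remodelling subunit, with 352, and at ph-p with 312. sn, the fascin gene, was the only one of 10 genes for body colour, eye colour and bristles. Its peaks were of 139, 82.2 and 19.0, and those of 82.2 and 19.0 overlapped. No peak fell to the 18 heat shock and translation genes on X, of which 11 had a promoter peak, nor to the 9 yolk, chorion and other late-life genes, of which 0 had one. The median lengths of these lists were 1797 and 1686 bp.

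The 3 dosage compensation genes and the 8 sex determination genes listed had no peak away from promoters, and 1 and 2 of them had a promoter peak. No member lay within 5000 bp of lncRNA:roX1 or lncRNA:roX2. The conservative peaks there were promoter peaks, of 106 at lncRNA:roX1 and of 158 and 113 near lncRNA:roX2. The start sites nearest to the peaks of 158 and 113 were those of e(y)2 and nod, not that of lncRNA:roX2. At CG9215 itself a promoter peak of 227, with 92.5 in replicate 1 and 136 in replicate 2, lay 137 bp from the gene. A promoter peak of 108 in a coding exon of the neighbouring CG7872 lay 2478 bp from CG9215. Also, 3 members lay within 5000 bp, the 903 peak in CG7872, 1135 bp from the gene, and overlapping coding exon peaks of 75.5 and 18.2 in Chsy, a chondroitin synthase gene. The transgene carries CG9215 sequence, and signal from it and from the native locus cannot be told apart.

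The summits were low in G+C. Windows reaching 50 bp to either side of the summits had 34.3% ± 9.64 (SD, n = 396 windows) G+C, against 43.5% ± 9.77 (n = 792) for windows centred 300 bp to either side of the same summits and 42.5% for chromosome X. Unselected X peaks away from promoters had 48.4% ± 9.75 (n = 17451), and within introns alone the members had 33.5% and the unselected X peaks 44.9%. X promoter peaks had 35.4% and autosomal peaks away from promoters 37.0%, so low G+C was shared across the list. A run of 10 or more A or T was found in 53.0% of the member windows, 28.3% of the flanks and 18.2% of the unselected windows.

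In 25 bp steps the mean G+C of the 396 was 33.4% at the summit, 42.3% and 42.1% at 100 bp to either side and 44.9% and 45.4% at 200 bp. It then fell to about 40% from 500 bp outward. Unselected X peaks ran the other way, with a mean of 48.6% at the summit. The lowest 51 bp of the 500 bp to either side lay within 50 bp of the summit for 26.5% (22.4 to 31.1) of members and 6.20% (5.85 to 6.57) of unselected X peaks. The share was near that of members in X promoter peaks, at 27.7% (23.3 to 32.6), and in autosomal peaks away from promoters, at 26.4% (24.2 to 28.9). Divided by falling signal into groups of 99, the 396 peaks had 32.7%, 32.5%, 33.1% and, for the weakest, 38.9% G+C. The weakest group, with signals up to 95.1, held most of the 24 members that overlapped a stronger peak. Their upper quartile of signal was 36.2, and their part in the G+C of that group was not tested. The part of sequencing and mapping in the composition of members or of unselected peaks was not tested.

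**Figure D4:**
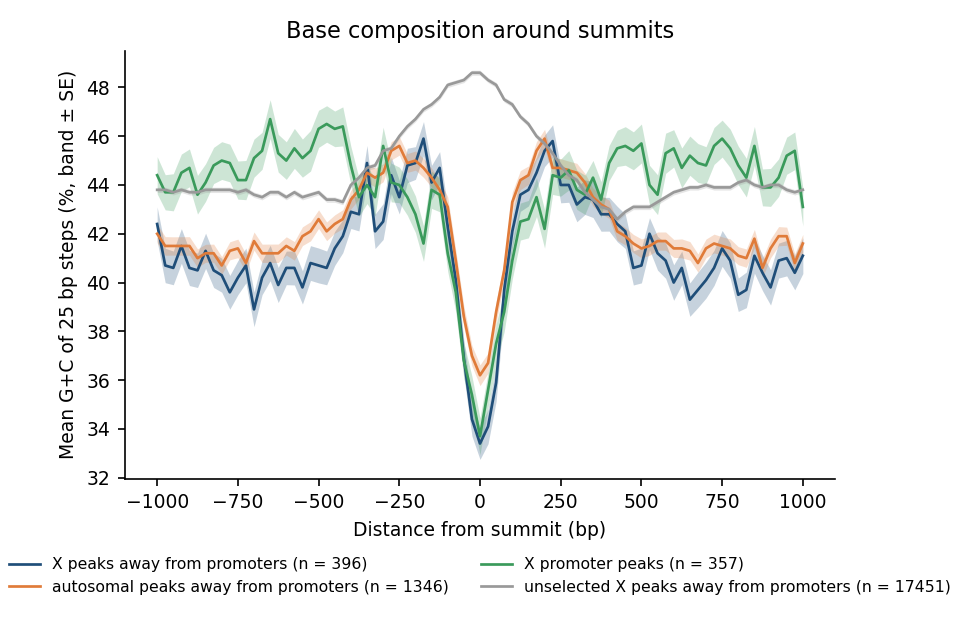
Mean G+C in 25 bp steps (y axis, percent, band ± SE over peaks) against distance from the summit (x axis, bp) for the chromosome X peaks away from promoters and 3 other sets. The 396 peaks fall to 33.4% at the summit while unselected X peaks rise to 48.6%.

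Short sequences were searched on both strands of the same windows. Words of 8 bases were ranked by the difference in share between conservative and unselected peaks away from promoters on 2L, 3L, 3R and 4, divided by its standard error (z). TTTAAAAA ranked first, and was then read on X, which had not chosen it. It was present in 24 of the 396 windows, or 6.06% (4.11 to 8.86), in 1.89% (1.15 to 3.10) of the flanks and in 0.974% (0.839 to 1.13) of unselected X windows. Of the 10 leading words 9 were made of A and T alone, and 65 members, or 16.4%, held any of the first 5. Autosomal peaks away from promoters held TTTAAAAA at 6.09%, but these include the peaks that chose it, and X promoter peaks held it at 4.76% (2.99 to 7.49). Several of the words overlap one another in sequence. Member windows were lower in G+C than flanks and unselected windows, and the part of base composition in these shares was not tested.

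Among 18 motifs, TATAAA, the TATA box letters, was present in 24.7% (20.8 to 29.2) of members, 8.21% (6.49 to 10.3) of flanks and 5.94% (5.60 to 6.30) of unselected X windows. X promoter peaks held it at 19.6% (15.8 to 24.0) and autosomal peaks away from promoters at 18.7% (16.7 to 20.9), so it was frequent in the other conservative sets too. The homeodomain letters TAATTA were in 8.59% (6.21 to 11.8), 5.30% and 3.98%. TGCATA, of the Su(Hw) core, was in 9.85% (7.29 to 13.2), 6.19% and 6.09%. The A tract AAAAAAAA was in 12.4% of members and 11.2% of flanks, with intervals that overlap, and in 5.44% of unselected windows.

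Several motifs with G or C had lower shares at the summits than beside them. GAGAG, the letters bound by GAGA factor and CLAMP, was in 11.1% (8.38 to 14.6) of members, 19.2% (16.6 to 22.1) of flanks and 12.7% (12.3 to 13.2) of unselected X windows, with 11.5% (9.92 to 13.3) in autosomal peaks away from promoters. Without replicate 2, in the thresholded list of replicate 1, the share at X peaks away from promoters was 7.18%, and in windows reaching 100 bp to either side of member summits it was 21.7%. The longer GAGAGAGA, which contains GAGAG and resembles the element of the dosage compensation complex, was in 1.26% (0.540 to 2.92) of members, 2.27% of flanks and 0.642% of unselected windows, so the member interval spans both. CACACACA was in 1.52% (0.696 to 3.27) of members, 7.58% (5.93 to 9.63) of flanks and 3.64% of unselected windows. The E-box CAGCTG was in 2.02% (1.03 to 3.94), 5.56% (4.16 to 7.38) and 5.92%.

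TATCGATA, the DNA replication-related element, was in 0.253% of members and 2.24% (1.14 to 4.36) of X promoter peaks. GGTCACACT, TGACGTCA and AACCGGTT were in 0 of the 396 windows, which allows a share of up to 0.961%. The Twist E-box CACATG was in 4.80% of members and 5.67% of unselected X windows. The Zelda letters CAGGTAG were in 0.758% and 0.607%, the GATA factor letters AGATAAG in 1.26% and 0.584%, and the nuclear receptor letters AGGTCA in 1.26% and 2.72%. The AP-1 letters TGACTCA were in 1.52% of members and 0.579% of unselected windows, and the CTCF core AGNNGGCGC was in 1.26% and 1.55%. For each of these 6 motifs except that of AP-1 (0.696 to 3.27), the member interval contained the unselected share. A match is a description of letters and no match says nothing of the factors.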

How the data were processed

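Peak lists on dm6 were deposited by the authors for 2 replicates of eGFP-tagged CG9215 embryos and for the series. The deposited signal and the score, a whole number from 830 to 1000 in thresholded lists, are the authors' values, as is the deposited −log10 of the irreproducible discovery rate. The sources used here do not give the peak caller or aligner. Depth is unknown, which limits precision. Gene models were Ensembl release 115 (BDGP 6.54), and start sites were those of all annotated transcripts, transposable elements included. Where features overlapped, UTRs were put before coding exons, these before non-coding exons, and introns last. Replicate signal is that of the strongest overlapping peak (at least 1 bp) in each ranked list. Members that overlap a stronger conservative peak can therefore carry that peak's replicate values and threshold status. Wilson 95% intervals cover the sampling of peaks only, and no p-values were computed, because peaks of 1 experiment are not replicates. Named genes are those of the 15 strongest peaks, of the 3 strongest of each list, hosts of 3 or more peaks, the strongest of each feature, the edges of the distance rule, peaks within 5 kb of CG9215, lncRNA:roX1 and lncRNA:roX2, and the 3 strongest lacking a thresholded overlap in a replicate. Members, the 11 gene lists (160 of 166 entries were found on X, 5 by synonym) and motifs were chosen with earlier results of these data known. Peaks off the assembled chromosomes (37) were left out of annotation. One gene that this rule names is not reported here. Code was tested on simulated data. Python 3.11.15, pandas 2.3.3, numpy 2.4.6, scipy 1.17.1 and matplotlib 3.10.9 were used.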

Additional observations from a re-analysis of the deposited data

How the results depend on the processing

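No paired analysis was possible because the labels give a single group. Of 63 alternative values 47 stayed within the 95% interval of the reported share, median or mean, or for numbers of peaks within 1.5 times, and 16 moved. When each replicate's own thresholded list took the place of the conservative list, the number of peaks ran from 243 (without replicate 1) to 376, the share of X peaks away from promoters from 47.2% to 54.0%, and the GAGAG share from 7.18% (without replicate 2) to 10.3%. The share of X peaks away from promoters was 64.1% over 250 bp and 39.7% over 1000 bp from start sites. In the upper part of the list by signal (over the median of 146), the number was 184, this share 48.2%, the share passed in both replicates 94.6% and the median signal 241. The share in both replicates was 40.2% with a reciprocal overlap of 50%. The intron share was 73.7% over 250 bp from start sites, and 85.1% of summits were inside any gene. GAGAG was in 21.7% of windows reaching 100 bp to either side. The causes were not tested, though a wider window or a looser distance admits more matches by construction. The share in both replicates and the median signal were not run on single replicate lists, since the first would be circular and the second has its own scale. In alternatives chosen after seeing the data, the share with another summit within 2000 bp was 36.6% without the peaks that overlap a stronger one. Mean G+C was 33.6% without those peaks, 33.1% over peaks not of the fixed width and 37.1% in the wider windows. Depth, controls and untagged embryos could not be taken into account, and shares under about 1% rest on few peaks.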

Other observations

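Along chromosome X the 396 peaks away from promoters were unevenly placed. Bins of 1000000 bp held between 1 and 32 of them, and the shorter last bin, from 23000001 to 23542271, held 0. The bin from 11000001 to 12000000 held 32, with 16 promoter peaks and 233 start sites, and that from 7000001 to 8000000 held 30, with 16 promoter peaks and 153 start sites. The bin from 14000001 to 15000000 held 5, with 10 promoter peaks and 155 start sites. At the centromere-proximal end, the bin from 22000001 to 23000000 held 1 peak away from promoters and 2 promoter peaks, and had 315 start sites. Start sites here are those of all annotated transcripts, transposable elements included, so these counts are not counts of gene promoters. The bins have no replicate error.

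lncRNA:flam, the flamenco piRNA locus, held 3 peaks, of which 1 at chrX:21713414-21713829 lies in annotated transposon copies, with a signal of 144, at 63.2 in replicate 1 and 85.2 in replicate 2. It was the strongest of the peaks passed in replicate 2 alone. Reads from copies of a transposon can map to more than 1 place, and the sources used here do not give how such reads were placed.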
